A study of Mus musculus with 6 samples.

Results

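Large-artery luminal endothelial cells form the single layer that lines the lumen of the aorta and its main branches. Here they were the 1868 cells, of 8401 gated endothelial cells and 60871 cell barcodes in all, that were selected on their own RNA counts. A cell was kept as endothelial if it had at least 500 detected genes, at most 20% mitochondrial counts and at least 3 UMIs (unique molecular identifiers, each standing for 1 captured RNA molecule) of Pecam1, Cdh5, Egfl7, Kdr and Tie1 together. It also had to hold no UMI of the lymphatic genes Prox1 and Mmrn1, and under 1.5% of its UMIs from the smooth muscle genes Acta2, Tagln, Myh11 and Cnn1. An endothelial cell was then called luminal if its UMIs of Gkn3, Klk10, Gja5 and Bmp6 summed to at least 3 and to more than the sum for each of 3 other sets of genes. Those sets stood for capillary (Gpihbp1, Car4 and Cd300lg), venous (Selp, Lrg1, Tmem252 and Ackr1) and arteriolar cells (Sema3g, Stmn2, St8sia6 and Alpl). The same rule applied to the other sets gave 3028 capillary, 1276 venous and 746 arteriolar cells, and 1483 endothelial cells met none of the 4.

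The cells came from droplet-based single-cell RNA sequencing (10x Genomics) of mouse aortic tissue in a study of smooth muscle function in aortic disease. The labels name 2 groups of 3 samples each: Best3FL/FL mice, which carry the floxed allele of Best3 (a bestrophin gene) and serve as controls, and Best3SMKO mice, in which Best3 is deleted in smooth muscle cells. The driver of the deletion, ages, sexes and any pooling of animals are not stated there. The single deposited matrix holds 6 libraries, told apart by barcode suffix and called libraries 1 to 6 here, and no label ties a suffix to a sample. No cell was therefore assigned to a genotype, no comparison between genotypes was made and no p-value is given. Levels are in CPM, a gene's UMIs per 1000000 UMIs of the pooled cells of a gate, and library values are given as the lowest, median and highest of the 6.

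As background, endothelial cells differ along the vascular tree. The lining of large elastic arteries meets fast pulsatile flow, and it is known for gap junctions built from Gja5 (connexin 40) and Gja4 (connexin 37), for Notch signalling and for BMP ligands, whose signals pass through Smad proteins to the Id genes. Capillary endothelium, in contrast, is the site of fatty acid uptake, for which it uses Gpihbp1, Cd36 and Fabp4, while venous endothelium carries selectin and transport genes.

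Luminal cells were found in every library: 291, 377, 222, 371, 380 and 227 cells in libraries 1 to 6. Their share of the gated endothelial cells was 20.1, 24.9, 28.0, 16.6, 26.5 and 23.3% in the same order. Over all libraries it was 22.2% (exact Clopper-Pearson 95% interval 21.4 to 23.1%). The interval of library 3 (24.9 to 31.3%), the highest share, and that of library 4 (15.05 to 18.2%), the lowest, did not meet. This pair was picked after the shares were seen, and no test between libraries was made. Library 4 also had the highest capillary share (43.0%), library 5 the lowest (21.5%), and what part dissection or cell loss had in these shares was not tested. All intervals here cover counting error only.

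**Figure D1:**
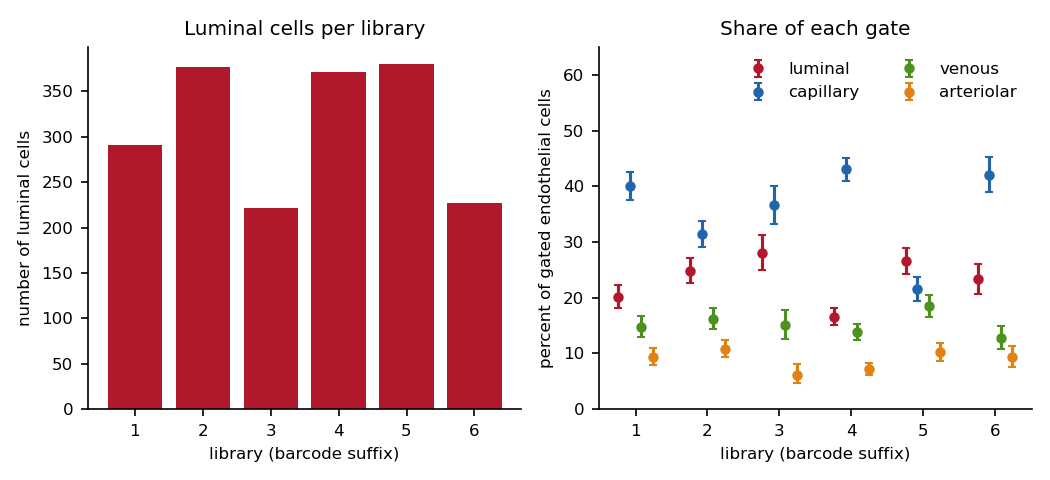
Number of luminal cells (bars, left) and share of gated endothelial cells in percent for each of 4 gates (points, right) in libraries 1 to 6, with exact 95% binomial intervals as error bars. The luminal share lay between 16.6% in library 4 and 28.0% in library 3.

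The 6 libraries held 7475 to 16269 barcodes and 51813179 to 96144873 UMIs, and the luminal cells of a library summed to 1646926 to 2925043 UMIs (13272884 in all). The median luminal cell had 6013.5 UMIs (5093 to 6721 over libraries), against 3738.5 in capillary, 5724.5 in venous and 5003.5 in arteriolar cells. No barcode sequence was shared by luminal cells of different libraries, while 26 luminal cells shared one with some other barcode of another library. Scrublet, a doublet caller, marked 114 luminal cells, 48 of them in library 5, and these were kept unless stated. Smooth muscle markers (11 of 11 at 10 CPM or more) summed to 2468 CPM in luminal cells (1956 to 3058 over libraries), below the 3108, 3479 and 2917 CPM of capillary, venous and arteriolar cells. Fibroblast markers (8 of 8) summed to 2329 CPM (1475 to 3184), against 2358, 2359 and 2284 CPM. Macrophage markers (7 of 8) summed to 346 CPM in luminal cells and 502 to 583 CPM in the other gates. Library 5 stood apart by a luminal level of 2309.6 CPM for Scgb1a1, an airway secretory gene that was at 0 in the luminal cells of the other libraries, which allows up to 3 counts in each.

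Most of the given markers were used by the rule itself, so their levels are a description and no check of the label. Gkn3, which encodes a gastrokine, was at 513 CPM in luminal cells (Poisson 95% interval 501 to 525; libraries 390.0, 523 and 626), and at 5.01 CPM in capillary, 5.04 CPM in venous and 151 CPM in arteriolar cells. Klk10, a kallikrein-related peptidase gene, was at 359 CPM (libraries 256, 340.3 and 508), against 1.76, 3.91 and 80.0 CPM in the same 3 gates. In all 6 libraries both genes were higher in luminal cells than in any library of another gate. Gja5 was at 397 CPM (libraries 325, 382 and 601), against 9.13, 5.17 and 179 CPM. Bmp6, which encodes a BMP ligand, was at 598 CPM (libraries 470.2, 579 and 746), against 194, 44.3 and 87.3 CPM. The capillary level of Bmp6 was the highest of the 4 luminal rule genes in any other gate, and 47.7% of capillary cells held a Bmp6 UMI.

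Bmx and Enpp6 mark the same cells but were not in the rule. Bmx, a tyrosine kinase gene of arterial endothelium, was at 396 CPM (interval 386 to 407; libraries 297, 391 and 488), and at 5.34 CPM in capillary, 27.2 CPM in venous and 171 CPM in arteriolar cells. Enpp6, a choline phosphodiesterase gene, was at 274 CPM (interval 265 to 283; libraries 261, 269 and 288), and at 5.21 CPM in capillary, 69.2 CPM in venous and 100.4 CPM in arteriolar cells. For both genes the lowest luminal library stood above the highest library of every other gate. A Bmx UMI was found in 78.2% of luminal cells (interval 76.3 to 80.1%), 46.0% of arteriolar, 12.2% of venous and 1.82% of capillary cells. With each cell thinned to 2000 UMIs, which left out 101 luminal cells, the luminal share was 52.0% and the arteriolar share 28.3%. Cells that should lack the gene gave the background: 0.414% of 2417 smooth muscle cells (median 11267 UMIs), 1.35% of 14923 fibroblasts (6468) and 0.821% of 2679 macrophages (5019). The capillary share of Bmx (interval 1.37 to 2.36%) lay above each of these, and its interval met only that of fibroblasts (1.17 to 1.55%). Thinned to 2000 UMIs, it was 0.783%, against 0.214, 0.553 and 0.347% in smooth muscle cells, fibroblasts and macrophages. The venous and arteriolar shares were further above the background.

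The cells differed in how many of the 4 luminal rule genes they held. Of the 1868, 558 (29.9%) held all 4 of the genes in the luminal sum, 770 held 3, 451 held 2 and 89 held 1. Among those last, 59 held Bmp6 alone. The sum ranged from 3 to 76 UMIs with a median of 10. At the edge, 125 cells had a sum of exactly 3, and 146 otherwise eligible cells had a sum of 2 and were left out. The cells just inside had 5086 CPM of Cytl1, 1038 of Sfrp1 and 37.6 of Cd36. Those just outside had 4544, 973 and 37.4 CPM of the same genes at a lower median depth (1816 against 2552 UMIs). A further 762 cells had a luminal sum of 3 or more that was not the largest of the 4. They had 2048 CPM of Cytl1, 89.7 of Sfrp1 and 2539.8 of Cd36. The cells with a sum of 2 were nearer to the luminal cells than those 762 in each of the 3 genes. The 762 were picked for another sum at least as large, so this order cannot be told apart from the selection.

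The 6 marker genes lie at chr6:87383256-87388935 (minus strand), chr7:43781035-43785410 (plus strand), chr3:96904693-97077416 (plus strand), chr13:38345107-38500302 (plus strand), chrX:164192842-164258193 (minus strand) and chr8:46986887-47096762 (plus strand) for Gkn3, Klk10, Gja5, Bmp6, Bmx and Enpp6 (GRCm38, GENCODE M21). RefSeq windows of the 250 bases before the start site (build GRCm38.p6) were read for 16 genes chosen after their values were seen, of which 15 were found. They were searched on both strands for 4 short motifs: the CACCC box bound by KLF factors, GTGGGAA bound by the Notch partner RBPJ, AACAAT bound by SOX factors and AGATAA bound by GATA factors. A match is a description and not a binding site. The windows of 2 rule genes (Klk10 and Gja5), of the cytokine-like gene Cytl1 and of the Notch target Hey2 are printed in the direction of transcription, with matched letters in capitals. They are Klk10 at chr7:43780804-43781053 (plus strand), Gja5 at chr3:97032152-97032401 (plus strand), Cytl1 at chr5:37735269-37735518 (plus strand) and Hey2 at chr10:30842784-30843033 (minus strand).
Klk10: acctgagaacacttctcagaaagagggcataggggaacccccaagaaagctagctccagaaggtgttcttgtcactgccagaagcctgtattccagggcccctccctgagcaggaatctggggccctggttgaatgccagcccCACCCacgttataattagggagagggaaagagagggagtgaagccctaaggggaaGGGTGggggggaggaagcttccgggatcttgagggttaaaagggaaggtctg
Gja5: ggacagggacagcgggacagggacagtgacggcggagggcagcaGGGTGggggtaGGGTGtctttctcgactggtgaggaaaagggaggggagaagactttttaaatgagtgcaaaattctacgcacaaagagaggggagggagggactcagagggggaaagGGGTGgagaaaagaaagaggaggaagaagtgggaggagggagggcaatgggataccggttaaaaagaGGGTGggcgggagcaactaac
Cytl1: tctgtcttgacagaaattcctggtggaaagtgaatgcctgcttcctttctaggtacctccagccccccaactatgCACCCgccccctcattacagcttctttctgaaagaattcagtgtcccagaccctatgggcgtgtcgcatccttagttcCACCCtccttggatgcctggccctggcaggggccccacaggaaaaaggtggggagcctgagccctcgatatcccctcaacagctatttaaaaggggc
Hey2: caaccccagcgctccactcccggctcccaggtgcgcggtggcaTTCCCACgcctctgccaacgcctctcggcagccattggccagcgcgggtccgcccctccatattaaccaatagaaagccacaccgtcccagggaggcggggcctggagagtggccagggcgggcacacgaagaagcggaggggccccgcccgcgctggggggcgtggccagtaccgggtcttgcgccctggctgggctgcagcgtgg

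The Gja5 window held 4 CACCC matches, those of Klk10 and Cytl1 held 2 each, and that of Hey2 held 1 RBPJ-type match and no CACCC. Of all 32817 windows of this length, 52.0% held CACCC, 5.42% GTGGGAA, 9.42% AACAAT and 9.99% AGATAA on either strand. The windows of Gkn3, Bmp6, Bmx and Coch held none of the 4, and that of Enpp6 held 1 AACAAT. The CACCC box is thus common in such windows, and the marker genes did not share a motif among these 4.

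To see which other genes set the luminal cells apart, they were compared with the capillary, venous and arteriolar gates over 4414 genes that reached 50 CPM in at least 1 gate, leaving out the 26 genes of the rule and 37 mitochondrial genes. A gene was counted as higher if it had at least 50 CPM in luminal cells, a ratio of at least 2 with 5 CPM added to both sides, and a ratio above 1 in every library with at least 20 cells in both gates. The mirror rule counted lower genes. By this rule 108 genes (2.45%) were higher in luminal cells than in each of the 3 gates, and 63 (1.43%) were lower. Against capillary cells alone 422 (9.56%) were higher and 480 (10.9%) lower. Against venous cells 289 (6.55%) were higher and 289 (6.55%) lower. Against arteriolar cells 153 (3.47%) were higher and 197 (4.46%) lower, which were the smallest counts of the 3. The gates were cut from the RNA counts of the same cells, so these counts describe the cells and carry no test.

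The 12 genes with the largest margin over all 3 gates included genes of secreted proteins. The largest margin was that of 1500015O10Rik (Ecrg4), a gene for a secreted peptide precursor, at 438 CPM (interval 427 to 449.8; libraries 363, 443 and 488), against 7.24, 8.57 and 18.1 CPM in capillary, venous and arteriolar cells. Sfrp1, which encodes a secreted Wnt inhibitor, was at 1265 CPM (interval 1246 to 1284; libraries 1118, 1217 and 1466), against 22.5, 29.8 and 87.3 CPM, a ratio of 13.8 to the nearest gate. Frzb, another secreted Wnt inhibitor, was at 139.9 CPM (libraries 89.9, 129 and 194), against 3.31, 5.30 and 9.17 CPM. Smoc1, a matricellular protein gene, was at 367 CPM (libraries 313, 355 and 458), against 18.1, 38.6 and 33.9 CPM. All 4 were above every library of the other gates in each of the 6 luminal libraries. A UMI of Sfrp1 was found in 89.1% of luminal cells, and in 29.2% of fibroblasts and 6.74% of smooth muscle cells.

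The other genes of these 12 included those of enzymes and transcription factors. Ephx2, the soluble epoxide hydrolase gene, was at 255 CPM (libraries 203, 258 and 283), against 5.21, 14.9 and 13.8 CPM. Gxylt2, a xylosyltransferase gene, was at 714 CPM (libraries 576, 667 and 918), against 25.6, 29.3 and 71.8 CPM. Fibroblasts also hold Gxylt2, with a UMI in 51.8% of them against 84.6% of luminal cells. Twist1, a mesenchymal transcription factor gene, was at 148 CPM (libraries 125, 139.6 and 198), against 7.10, 7.31 and 11.7 CPM. The homeobox genes Isl1 and Nkx2-3 were at 95.8 CPM (libraries 84.1, 89.6 and 117) and 91.8 CPM (libraries 79.7, 92.4 and 110.4), and neither passed 7.56 CPM in another gate. Pla2g5, a secreted phospholipase gene, was at 63.5 CPM (libraries 57.8, 62.1 and 70.4), against 0.473, 1.01 and 4.81 CPM. Coch, the cochlin gene, was at 97.2 CPM (libraries 56.7, 96.7 and 124), against 0.879, 5.80 and 7.56 CPM, and was the single gene of these 12 whose luminal libraries overlapped those of another gate, the arteriolar one. Ahsg, the fetuin-A gene, varied most, from 34.7 to 151 CPM over libraries, against 2.44, 6.68 and 2.98 CPM.

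**Figure D2:**
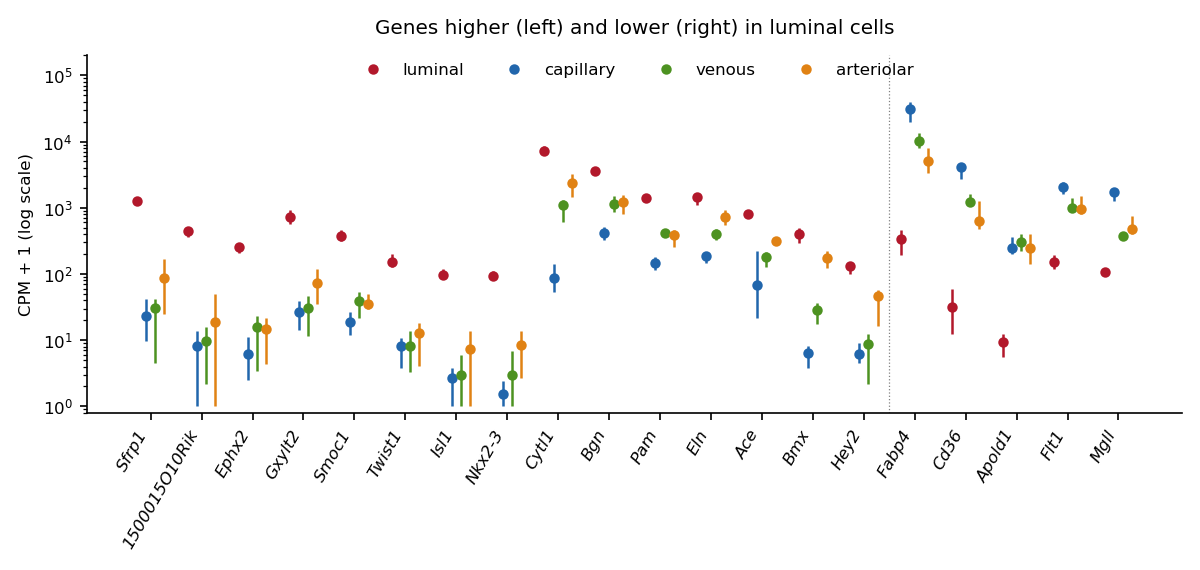
Pooled level (points, CPM + 1 on a log axis) of 20 named genes in the luminal, capillary, venous and arteriolar gates, with lines from the lowest to the highest library. Luminal levels of Sfrp1 (1265 CPM) and Cytl1 (7157 CPM) lie above those of the other gates, and those of Cd36 (30.6 CPM) and Flt1 (153 CPM) below.

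The genes with the largest ratio to a single gate included Cytl1, which encodes a small secreted cytokine-like protein. Cytl1 was at 7157 CPM (interval 7111 to 7202; libraries 6686, 6945 and 8584), against 84.8, 1108 and 2375 CPM in capillary, venous and arteriolar cells, and 99.5% of luminal cells held a UMI. The same share was 17.3% in capillary cells and 19.8 to 24.3% in smooth muscle cells, fibroblasts and macrophages, which differ in depth. With each cell thinned to 2000 UMIs, the Cytl1 share was 9.11% in capillary cells, above the 4.23% of smooth muscle cells, close to the 9.38% of macrophages and below the 12.5% of fibroblasts. Adh7, a retinol and alcohol dehydrogenase gene, was at 378 CPM (libraries 349, 382 and 429), against 4.94, 7.69 and 119.9 CPM. Spon1, the F-spondin gene, was at 396 CPM (libraries 311, 399 and 489), against 7.03, 10.8 and 63.5 CPM. Thbs1, the thrombospondin 1 gene, was at 619 CPM (libraries 392, 570.5 and 879.7), against 54.0, 125 and 34.6 CPM. Cytl1, Adh7 and Spon1 had their next highest level in the arteriolar gate, and Thbs1 in the venous gate.

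The 8 genes furthest below all 3 gates included 2 of fatty acid handling, Cd36 and Fabp4. Cd36, the fatty acid translocase gene, was at 30.6 CPM in luminal cells (interval 27.7 to 33.7; libraries 11.4, 23.4 and 58.1), against 4150.3 CPM in capillary, 1213 CPM in venous and 640.3 CPM in arteriolar cells. Fabp4, a fatty acid carrier gene, was at 337 CPM (libraries 196, 320.4 and 453), against 30535, 10211 and 5071 CPM. Every library had luminal levels below those of the other gates for both genes, 89.2 times lower than in capillary cells in the case of Fabp4. C1qtnf9, an adipokine-like secreted protein gene, was at 9.72 CPM (libraries 4.55, 8.93 and 14.4), against 617, 259 and 135 CPM. Apold1, an early response gene of endothelium, was at 8.36 CPM (libraries 4.55, 7.76 and 11.3), against 248, 305 and 244 CPM, and at 18.6 times below the nearest gate had the largest margin of the 8. Depp1, a FOXO target gene, was at 7.38 CPM (libraries 3.64, 5.95 and 15.2), against 588, 103 and 239.6 CPM. Pcdh17, Adamts9 and Csf2rb, genes of a protocadherin, a secreted protease and a cytokine receptor subunit, were at 1.36, 5.20 and 5.35 CPM in luminal cells and at 71.1 CPM or more in every other gate. Slc6a6, the taurine transporter gene and one of those furthest below the arteriolar gate alone, was at 35.2 CPM, against 259, 136 and 835 CPM.

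The gene lists, chosen with earlier results of these data known, were then read as counts and carry no test. Beside them stand all 4414 genes, of which 2.45% were higher and 1.43% lower than in all 3 gates. The median log2 ratio of all genes was -0.03, 0.03 and -0.03 against capillary, venous and arteriolar cells. The given markers Bmx and Enpp6 are list members, so their calls there are a description. In the list of capillary and fatty acid genes, 17 of 18 were tested, none was higher and 5 were lower than in all 3 gates, with list medians of -4.07, -1.47 and -1.50. Against capillary cells alone 14 of the 17 were lower and 1 was higher, beside 10.9% and 9.56% of all genes. The 5 were Cd36, Fabp4, Mgll, Meox2 and Tcf15. Mgll, a monoacylglycerol lipase gene, was at 104 CPM (libraries 98.2, 105 and 115), against 1710.5, 378 and 479 CPM. The homeobox gene Meox2 was at 5.58 CPM against 162, 179 and 62.6 CPM, and its partner in capillary endothelium, Tcf15, at 4.29 CPM against 387, 61.8 and 69.9 CPM. Lpl and Pparg, genes of lipoprotein lipase and of a lipid-sensing nuclear receptor, were at 36.6 and 1.73 CPM in luminal cells and at 1939 and 211 CPM in capillary cells. Apoe went the other way, at 3464 CPM against 1633, 2450.5 and 893 CPM, and was higher than in the capillary and arteriolar gates.

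**Figure D3:**
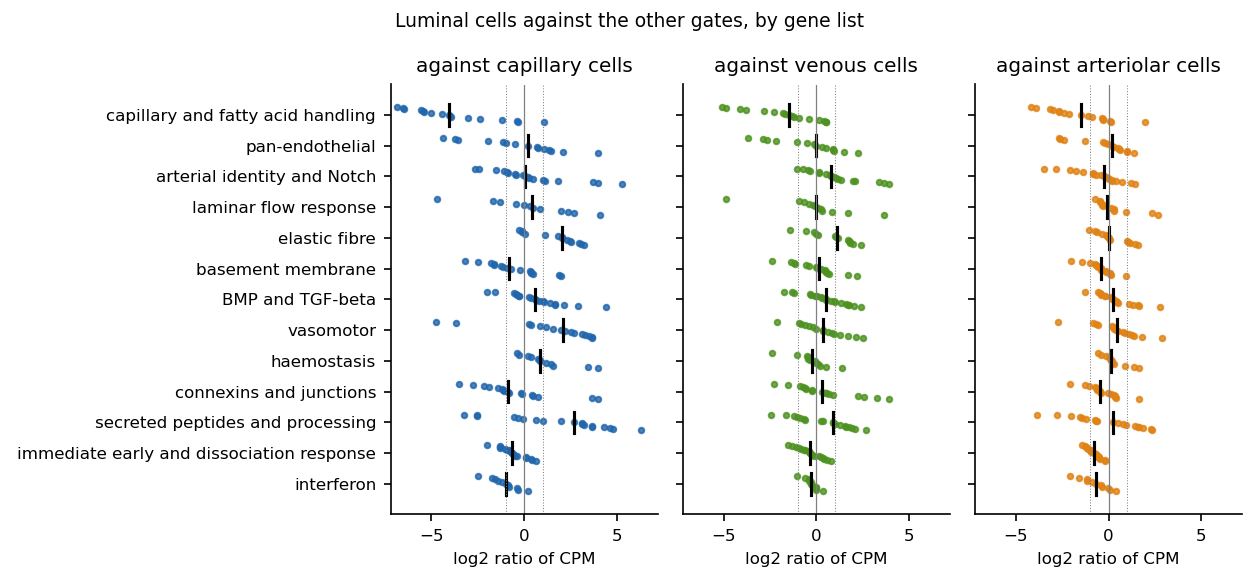
Log2 ratio (with 5 CPM added) of luminal to capillary, venous and arteriolar cells for the tested genes (points) of 13 gene lists, with the list medians as black bars and dotted lines at a ratio of 2 in either direction. The capillary and fatty acid list lies furthest below 0 (-4.07 against capillary cells) and the list of secreted peptides furthest above (2.70).

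Genes of the elastic fibre, the stretchable protein network of the arterial wall, were on the higher side. Of 21 genes in the list, 14 were tested, and 5 were higher than in all 3 gates with none lower. Over all genes 2.45% were higher and 1.43% lower. The list medians were 2.06, 1.10 and 0.02. Eln, the elastin gene, was at 1455 CPM (libraries 1116, 1462 and 1671), against 185, 407 and 716 CPM. Mfap5, a microfibril gene, was at 395 CPM (libraries 267, 381 and 535), against 90.5, 112 and 130.2 CPM. Lox, the crosslinking enzyme gene lysyl oxidase, was at 209 CPM (libraries 174, 211 and 245), against 18.2, 35.7 and 98.3 CPM. Ltbp3, a latent TGF-beta binding protein gene, and Emilin1, an elastin interface gene, were the other two, at 210.4 and 121 CPM. Mgp, which encodes the calcification inhibitor matrix Gla protein, was far above the capillary (1143 CPM) and venous (2723 CPM) levels at 9702 CPM, and close to the arteriolar level of 9729 CPM. Fbln5, Fbln2 and Ltbp4 lay within the same pattern, at 882, 975 and 1627 CPM in luminal and 838, 1058 and 1585 CPM in arteriolar cells.

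Several of these elastic fibre calls lay near the limit. Against arteriolar cells the ratio of Eln was 2.03, and it was 1.99 without library 2 and 1.97 without library 5, which ends the call. For Lox the ratio to arteriolar cells was 2.07, and it was 1.93 without library 4 and 1.97 without library 5. For Emilin1 the ratio to venous cells was 2.01, and it was 1.90 without library 2 and 1.94 without library 6. Over 23 other settings the number of elastic fibre genes higher than all 3 gates ranged from 0 to 5. Eln is also a smooth muscle gene, with a UMI in 95.7% of smooth muscle cells. With the smooth muscle limit loosened to under 3% of a cell's UMIs, the Eln ratio to capillary cells fell from 7.68 to 5.76. The Eln ratio to arteriolar cells was then 1.99, which ends the call, and the Emilin1 ratio to venous cells was 1.95. With the limit tightened to under 0.75%, the Eln and Emilin1 calls were both kept. The part of smooth muscle RNA in the Eln level was not tested.

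Matrix genes of the basement membrane gave 1 call against all 3 gates. Of 20, 16 were tested, none was higher and 1, Sparcl1, was lower, beside 2.45% and 1.43% of all genes. With 16 genes, these counts do not set the list apart. The list medians were -0.80, 0.15 and -0.41. Sparcl1, a matricellular gene, was at 149.7 CPM (libraries 111, 143 and 206), against 1387, 345 and 626 CPM. The type IV collagen genes Col4a1 and Col4a2 were at 281 and 109 CPM in luminal and 997 and 623 CPM in capillary cells. Fn1, the fibronectin gene, was at 814 CPM, near the arteriolar 765 and above the capillary 202 and venous 249.5 CPM.

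The BMP and TGF-beta list holds ligands, modulators, receptors and targets. Of 26 genes, 20 were tested, 3 were higher than in all 3 gates and none lower, beside 2.45% and 1.43% of all genes. The list medians were 0.60, 0.52 and 0.24. Bmp4, which like the rule gene Bmp6 encodes a BMP ligand, was at 856 CPM (interval 840.4 to 872; libraries 519, 854 and 1049), against 34.6, 262 and 122 CPM. Fstl1, a follistatin-like modulator gene, was at 996 CPM (libraries 841, 948 and 1222), against 129.7, 240.5 and 332 CPM. Acvr1, a type I receptor gene, was at 99.0 CPM (libraries 82.7, 91.7 and 123), against 28.1, 29.0 and 36.0 CPM. For these 3 genes no luminal library overlapped a library of another gate. Bmpr1a, a BMP type I receptor gene outside the list that was named after its values were seen, was also higher than in all 3 gates, at 112 CPM (libraries 87.4, 111 and 136) against 18.9, 20.3 and 46.1 CPM. The receptor genes Acvrl1 and Bmpr2 differed less, at 230.2 and 492 CPM in luminal cells and 267 and 427 CPM in arteriolar cells. The inhibitory Smad genes Smad6 and Smad7 were at 171 and 338 CPM, against 34.2 and 104 CPM in capillary and 125 and 253 CPM in arteriolar cells. The target genes Id1 and Id3 were at 489.7 and 1416 CPM, with Id1 at 597, 240.5 and 736 CPM and Id3 at 912, 743 and 1173 CPM in capillary, venous and arteriolar cells. In the Wnt list 10 of 18 genes were tested and Sfrp1 alone was higher than in all 3 gates, with none lower and medians of 0.62, 0.36 and 0.50.

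Arterial identity and Notch genes split into a part that was high in luminal cells and a part that was higher in arterioles. Of 22 genes, 19 were tested, and Hey2 and Bmx were higher than in all 3 gates with none lower. Those 2 calls stand beside 2.45% of all genes higher and 1.43% lower. Against venous cells 8 were higher and none lower, beside 6.55% of all genes in each direction. Against arteriolar cells 2 were higher and 5 lower, beside 3.47% and 4.46% of all genes. The list medians were 0.07, 0.79 and -0.23. Hey2, a Notch target gene, was at 129 CPM (libraries 97.8, 129.6 and 148), against 5.28, 7.82 and 44.7 CPM. Gja4 was at 319.7 CPM (libraries 267, 334 and 349.8), against 15.3, 16.5 and 238 CPM, so it was shared with the arteriolar gate. Hey1, a related Notch target, ran the other way, at 12.4 CPM in luminal cells and 119 CPM in arteriolar cells. The Notch ligand genes Dll4, Jag1 and Jag2 were also lower than in the arteriolar gate, at 22.6, 90.3 and 12.5 CPM against 113, 318 and 189 CPM. Sox17, an arterial transcription factor gene, was at 147 against 385 CPM. Notch1 itself was at 343 CPM in luminal and 349 CPM in arteriolar cells. Gja4, Hey1, Dll4, Jag1, Jag2, Sox17 and Notch1 were named after their values were seen.

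Genes that set vessel tone were mostly above the capillary level. Of 26 in the vasomotor list, 16 were tested. Of these, 11 were higher and 2 lower than in capillary cells, against 9.56% and 10.9% of all genes. The list medians were 2.08, 0.35 and 0.46. Higher than in all 3 gates were 2 genes, against 2.45% of all genes. Those 2 were Ace, the angiotensin-converting enzyme gene, at 811 CPM (libraries 717, 817 and 911) against 68.3, 179.9 and 316 CPM, and Ptgis, the prostacyclin synthase gene, at 544 CPM (libraries 413, 533 and 713) against 78.9, 89.4 and 223 CPM. Edn1, the endothelin 1 gene, was at 625 CPM, against 67.0, 492 and 536 CPM, and did not separate from venous or arteriolar libraries. Nos3, the endothelial nitric oxide synthase gene, was at 322 CPM (libraries 281, 331 and 343), against 78.3, 178 and 258 CPM. Ednrb, an endothelin receptor gene of capillaries, was at 3.62 CPM against 229 CPM in capillary cells.

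In the list of genes that respond to laminar flow, 12 of 18 were tested and Cyp1b1 alone was higher than in all 3 gates. None was lower, and the medians were 0.40, -0.00 and -0.10. Over all genes 2.45% were higher and 1.43% lower, so 1 call does not set this list apart. Cyp1b1, a cytochrome P450 gene, was at 365 CPM (libraries 257, 356 and 470.0), against 16.8, 24.5 and 53.9 CPM. The flow-induced transcription factor genes Klf2 and Klf4 did not reach their highest level here: Klf2 was at 1690.1 CPM (libraries 1355, 1776 and 2026) and Klf4 at 1222 CPM (libraries 935, 1253 and 1728), against 2340.5 and 2025 CPM in arteriolar cells. The luminal libraries of Klf2 overlapped those of the capillary and venous gates. Aqp1, a water channel gene, was at 126 CPM, against 3369, 3822 and 164 CPM, and was low in both arterial gates. Klf2 and Klf4 also answer to tissue dissociation. Of the 19 immediate early and dissociation genes, all tested, none was higher in luminal cells than in any gate. Lower than in capillary, venous and arteriolar cells were 5, 3 and 6, beside 10.9, 6.55 and 4.46% of all genes. The medians of these 19 were -0.65, -0.36 and -0.80. Fos was at 2326 CPM against 2187, 2754 and 3725 CPM, and the part of dissociation in the Klf levels was not tested.

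Some genes of the venous list were also high in luminal cells. Of the 10 in the venous list, all tested, 6 were higher than in capillary and 5 higher than in arteriolar cells. Another count, of genes lower than in venous cells, was 5. Of all genes, 9.56% were higher than in capillary, 3.47% higher than in arteriolar and 6.55% lower than in venous cells. The list medians were 2.18, -1.003 and 1.12. Vwf, the von Willebrand factor gene, was at 1148 CPM (libraries 1065, 1140.2 and 1248), against 67.6, 1624 and 443 CPM. Vcam1, a leukocyte adhesion gene, was at 938 CPM (libraries 832, 872 and 1149), against 50.5, 631 and 395 CPM, its highest level of the 4 gates. Bgn, the biglycan gene, was at 3631 CPM (libraries 3326, 3671 and 3799), against 409, 1156 and 1211 CPM, and was higher than in all 3 gates. Nr2f2, the venous identity factor gene, was at 33.0 CPM against 434 CPM in venous cells, Plvap, a fenestral diaphragm gene, at 287 against 1593 CPM, and Aplnr, the apelin receptor gene, at 1.05 against 60.5 CPM. In the haemostasis list, 12 of 18 were tested and none passed in either direction against all 3 gates. Against capillary cells 5 were higher, beside 9.56% of all genes. In the list of adhesion genes, 11 of 16 were tested. Cxcl12 alone passed, as lower than in all 3 gates, beside 1.43% of all genes. Cxcl12, a chemokine gene, was at 98.5 CPM (libraries 69.2, 104 and 118), against 1088, 231 and 279 CPM. Clu, the clusterin gene of the same list, was at 2876 CPM (libraries 2664, 2806 and 3242), against 111, 664 and 1703 CPM.

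Junction and growth factor receptor genes were lower in several cases. Of 21 junction genes, 17 were tested, 1 was higher and 1 lower than in all 3 gates, and 8 were lower than in capillary cells. Over all genes 2.45% were higher and 1.43% lower than in all 3 gates, and 10.9% were lower than in capillary cells. The junction list had medians of -0.89, 0.30 and -0.47. Cgnl1, the tight junction gene paracingulin, was at 873 CPM (libraries 784, 856 and 946), against 64.8, 86.8 and 279 CPM. Gja1, the connexin 43 gene, was at 12.1 CPM (libraries 9.11, 11.6 and 17.3), against 192, 76.7 and 67.9 CPM. Among connexins, Gja4 was thus shared with arteriolar cells, while Gja1 was lowest in luminal cells. Cldn5, a tight junction gene, was at 580.1 CPM, against 1291, 117 and 1395 CPM. Of 20 VEGF and angiopoietin genes, 14 were tested and 2, Flt1 and Kitl, were lower than in all 3 gates, with medians of -0.22, -0.22 and -0.15. Flt1, a VEGF receptor gene, was at 153 CPM (interval 146 to 159.8; libraries 117, 150.2 and 191), against 2065, 988 and 971 CPM. Kitl, the stem cell factor gene, was at 99.9 CPM (libraries 84.7, 96.8 and 117), against 712, 296 and 384 CPM. Tek, the angiopoietin receptor gene, was at 477 CPM (libraries 440.1, 475 and 559), above each other gate (224, 246 and 313 CPM) and past the 2-fold limit only against capillary cells.

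All 15 genes of the pan-endothelial list were tested, and 3 were lower than in all 3 gates: Flt1, Adgrl4 and Robo4. Adgrl4, an adhesion receptor gene of angiogenic endothelium, was at 52.4 CPM (libraries 43.7, 52.3 and 59.8), against 672, 256 and 304 CPM. Robo4, a guidance receptor gene, was at 6.18 CPM (libraries 4.22, 5.97 and 8.21), against 227, 137 and 65.6 CPM. Ptprb, an endothelial phosphatase gene, was at 3351 CPM, against 1321, 2353 and 2324 CPM, and Erg, an endothelial transcription factor gene, at 166 CPM, against 143, 136 and 146 CPM. The list medians were 0.21, -0.04 and 0.18, with members on both sides: 5 of the 15 were higher and 5 lower than in capillary cells, against 9.56% and 10.9% of all genes, and the 3 lower than in all gates stand against 1.43% of all genes.

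Transcription factors gave 4 genes that were higher and 1 that was lower than in all 3 gates, of 19 tested among 40. Beside them stand 2.45% of all genes higher and 1.43% lower. Gata6 was at 451 CPM (libraries 432, 449.9 and 477), against 30.8, 222 and 165 CPM. Its ratio to venous cells was 2.01, and it was 1.99 without library 3, 1.98 without library 5 and 1.96 without library 6, which ends the call. Foxc2, a forkhead gene, was at 87.1 CPM (libraries 77.3, 89.9 and 94.4), against 6.90, 17.0 and 23.4 CPM, and Gata3 at 58.8 CPM, against 5.48, 3.91 and 10.5 CPM. Nkx2-3, described above, was the fourth. Ebf1 was the lower one, at 77.9 CPM (libraries 59.3, 75.7 and 98.5), against 291, 514 and 369.8 CPM. Foxc1 and Gata2 showed smaller gaps, with Foxc1 at 182 CPM against 39.5, 170.1 and 108 CPM and Gata2 at 197 CPM against 87.3, 74.1 and 194 CPM. The list medians were 0.27, -0.04 and -0.05.

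Secreted peptides and the enzymes that process them were the list with the highest median against capillary cells. Of 24 genes, 19 were tested, with medians of 2.70, 0.89 and 0.22. Higher than in all 3 gates were 4 genes and lower none, beside 2.45% and 1.43% of all genes. Beside Cytl1 and Enpp6 these were Pam, the peptide amidating enzyme gene, at 1419 CPM (libraries 1278, 1393 and 1599) against 145, 416 and 392 CPM, and Ctsh, the cathepsin H gene, at 1081 CPM (libraries 985, 1024 and 1376) against 49.1, 374 and 343 CPM. Cpe, the carboxypeptidase E gene, was at 1254 CPM (libraries 1085, 1229 and 1451), against 142, 664 and 254 CPM, and did not reach the 2-fold limit against venous cells. In the opposite direction, Igfbp3 and Igfbp7, genes of IGF-binding proteins, were at 7.91 and 358 CPM in luminal and 117 and 2110.0 CPM in capillary cells.

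The other lists held few calls against all 3 gates, beside 2.45% of all genes higher and 1.43% lower. Of 17 antioxidant genes tested among 19, Sod3, the extracellular superoxide dismutase gene, was higher than in all 3 gates, at 309 CPM (libraries 249, 306 and 334) against 56.8, 64.9 and 88.3 CPM. Of 14 MHC and complement genes, all tested, Cd59a, a complement inhibitor gene, was lower than in all 3 gates, at 69.9 CPM against 178, 249.9 and 201 CPM. Of 12 genes of endothelial-mesenchymal transition tested among 18, Twist1 was higher and none lower, with medians of 0.29, -0.04 and 0.07. Zeb1, another factor of that list, was at 129 CPM against 128, 126 and 135 CPM, and Vim, the vimentin gene, at 3065 CPM against 1356, 3302 and 3850.0 CPM. No interferon gene of 11 tested among 13 passed against all 3 gates. Of these 11, 5 were lower than in capillary cells, beside 10.9% of all genes, with Ly6c1 at 540.0 against 3069 CPM. Of 10 genes of the arteriolar list, 9 were tested, and 4 were lower and none higher than in arteriolar cells. Over all genes these shares were 4.46% and 3.47%. Among the 4 was Rbp7, a retinol-binding protein gene, at 6.63 against 332 CPM. Of 12 cell cycle genes only 2 were tested, and Hmgb2 was lower than in all 3 gates, at 38.8 CPM against 167, 96.5 and 105 CPM.

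Among themselves the 6 libraries of luminal cells were close for most genes. For the 4644 genes with at least 50 UMIs in each, the highest library stood over the lowest by a median factor of 1.36, which was at least 2 for 144 genes (3.101%) and at least 3 for 28. Tmed5 and Trafd1, genes of vesicle transport and of innate immune feedback, had the narrowest ratio, from 144 to 151 and from 38.5 to 39.5 CPM. Igfbp6 had the widest, at 476 CPM in library 4 and 48.6 to 127 CPM in the others. The fibroblast gene Dcn was at 1846 CPM in library 4, its highest, at 1801 CPM in library 2 and at 744 CPM or more in the rest. Cxcl2, a chemokine gene, was at 178 and 119 CPM in libraries 5 and 2 and at 20.5 to 52.9 CPM elsewhere. Lyz2, a macrophage gene, was at 345 CPM in library 5, and at 58.3 to 164 CPM in the others. The macrophage complement gene C1qa was at 55.2 CPM in library 5 and from 23.4 to 80.4 CPM over all 6. The part of other cells' RNA in these 3 spreads was not tested.

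Some genes were high in the same libraries. Cd74, the MHC class II invariant chain gene, was at 1097, 214, 315, 261, 857 and 409 CPM in libraries 1 to 6, so libraries 1 and 5 were high. H2-Aa, H2-Ab1 and H2-Eb1, class II genes, were high in the same 2 libraries, H2-Aa at 399 and 427 CPM against 140.1 to 196 CPM. In capillary cells Cd74 was at 1852 CPM in library 5 and 95.3 CPM in library 1, so in capillary cells library 5 was high and library 1 was not. Venous cells had 1410 CPM in library 5 and 240 CPM in library 1. In arteriolar cells Cd74 was at 616, 80.2, 189, 737, 940 and 67.5 CPM in libraries 1 to 6. There library 1 was above libraries 2, 3 and 6, as in luminal cells, and library 4 was high as well. Gm42418, a transcript that overlaps ribosomal RNA, was at 4183, 15682, 12115, 8270.0, 4887 and 15744 CPM in libraries 1 to 6. Lars2, a mitochondrial tRNA synthetase gene, was at 461, 1330.1, 1139, 583, 654 and 1674 CPM, and Hsph1, a heat shock gene, at 61.4, 205, 281, 75.6, 141 and 225 CPM. For all 3 genes libraries 2, 3 and 6 were the highest. The same 3 libraries were also the highest for Gm42418 and Lars2 in the capillary, venous, arteriolar, smooth muscle and fibroblast gates, so for these genes the pattern was not one of luminal cells alone. These genes, beyond Cd74, were named after their values were seen, and the libraries have no known genotype.

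**Figure D4:**
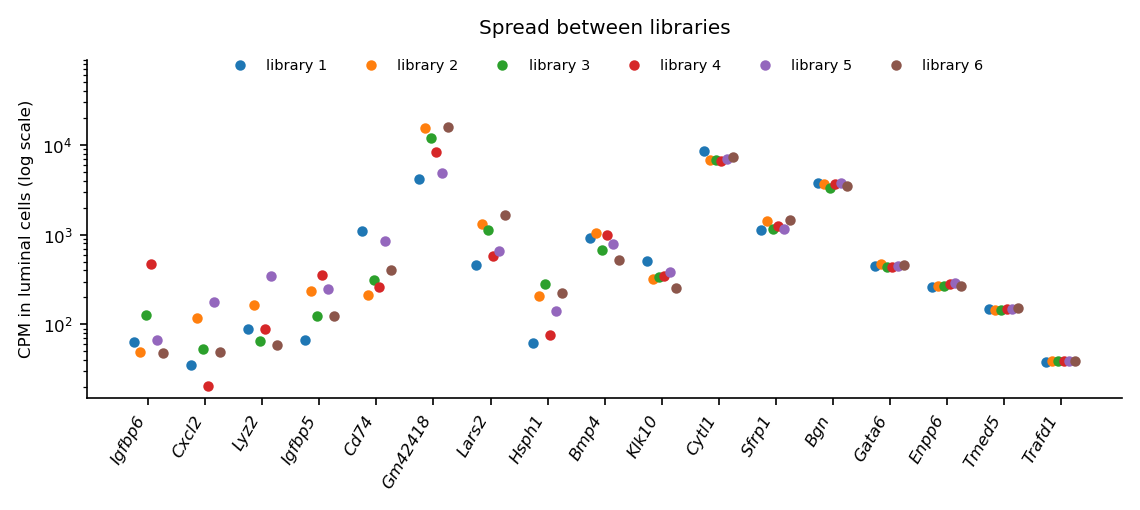
Luminal level (CPM, log axis) of 17 named genes, with 1 point for each of libraries 1 to 6. Cytl1 stays between 6686 and 8584 CPM, while Cd74 runs from 214 to 1097 CPM with libraries 1 and 5 highest.

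The luminal cells were also not uniform. They were clustered on genes outside the rule, which gave 6 sub-clusters that are numbered here and not named. The genes that separate them were used to form them, so their levels are a description, and they were chosen after their values were seen. Sub-cluster 1 held 851 cells (45.6%; 39.6 to 52.0% over libraries), sub-cluster 2 held 545 (29.2%; 24.2 to 34.8%) and sub-cluster 3 held 308 (16.5%; 9.97 to 23.1%). Each of the 3 was present in all 6 libraries, and Scrublet marked 2, 2 and 1 of their cells.

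Sub-clusters 1 to 3 shared a common base. Cytl1 was at 7892, 7881 and 7084 CPM in sub-clusters 1, 2 and 3, Bmx at 435, 421 and 434 CPM, and Gja4 at 347, 335 and 329 CPM. Sub-cluster 1 was marked by Klk8, Plat and Gdf15, genes of a peptidase, of tissue plasminogen activator and of a stress-related ligand. Klk8 was at 226 CPM there, against 70.3 and 138 CPM in sub-clusters 2 and 3, and Plat at 203 against 60.6 and 73.8 CPM. Isl1 and Nkx2-3 were low in sub-cluster 2 alone among the 3, with Isl1 at 159, 15.7 and 151 CPM and Nkx2-3 at 162, 21.7 and 124 CPM.

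Sub-cluster 2 was marked by Col8a1, a short-chain collagen gene, at 271 CPM, against 20.1 and 24.3 CPM in sub-clusters 1 and 3. Eln was also highest there, at 981, 2257 and 1326 CPM in sub-clusters 1 to 3, as was Klk10, at 284, 639.6 and 116 CPM. Coch was at 12.9, 198 and 124 CPM, and so was nearly missing from sub-cluster 1. Sub-cluster 3 was marked by Gdf6, a BMP family ligand gene, at 64.8 CPM, against 0.422 and 0.921 CPM, and by Emcn, an endomucin gene, at 372 against 35.04 and 53.7 CPM. Bmp4 and Bmp6 were highest there too, Bmp4 at 594, 835 and 1666 CPM and Bmp6 at 571, 507 and 1029.7 CPM. Thbs1 was at 209, 443 and 1848 CPM and Twist1 at 174, 31.3 and 339.9 CPM. Klf2 and Cldn5 were lowest in sub-cluster 3, Klf2 at 1797, 2105 and 1080.4 CPM and Cldn5 at 572, 989 and 96.5 CPM.

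**Figure D5:**
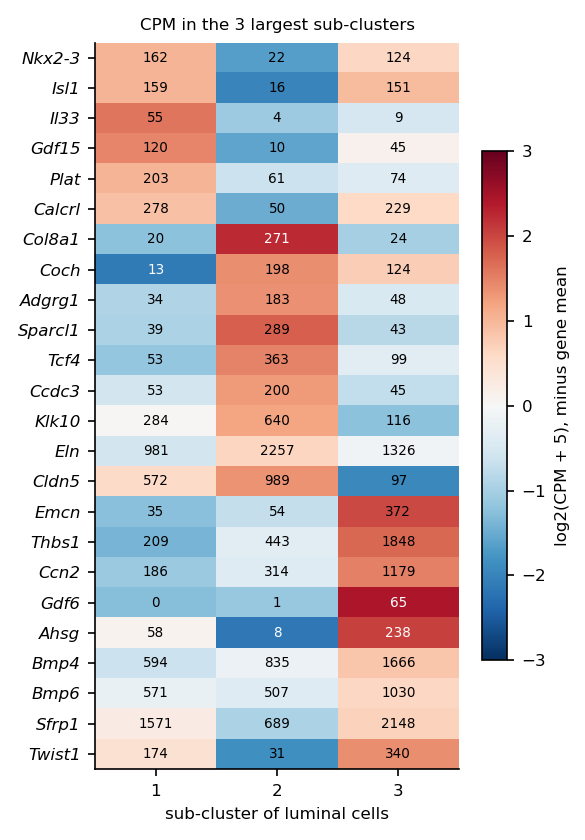
Heat map of the genes that set them apart (rows) in luminal sub-clusters 1, 2 and 3 (columns), pooled over libraries: the number in each cell is the level in CPM, and the colour is log2(CPM + 5) less the gene's mean over the 3. Col8a1 is highest in sub-cluster 2 (271 CPM) and Gdf6 in sub-cluster 3 (64.8 CPM).

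The sub-clusters differed in how firmly they held. At a clustering resolution of 0.8, which gave 12 clusters, 81.2% of sub-cluster 3 and 57.2% of sub-cluster 2 stayed in 1 cluster, against 33.1% of sub-cluster 1. With 1000 variable genes in place of 1500 these shares were 83.8, 96.0 and 52.1%. In that setting, however, the cells of sub-cluster 3 fell in a cluster of 633 cells and made up 40.8% of it, so sub-cluster 3 was not a cluster of its own there. With cells over 1% of UMIs from markers of other cell types left out, the shares for sub-clusters 3, 2 and 1 were 78.9, 94.3 and 78.8%. The order of the 3 thus changed with the setting. Sub-clusters 4, 5 and 6 were small, with 121, 32 and 11 cells, and Scrublet marked 69.4, 62.5 and 45.5% of them. The leading genes of sub-clusters 4 and 5 were those of other cell types: the fibroblast gene Dcn at 8874 CPM in sub-cluster 4, and Scgb1a1 at 14719 and Lyz2 at 4157 CPM in sub-cluster 5. Of the 32 cells in sub-cluster 5, 19 were from library 5. Without the luminal, capillary, venous and arteriolar cells that Scrublet marked, 1754 luminal cells remained and the counts of genes past the rule against all 3 gates were 115 higher and 68 lower.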

How the data were processed

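Droplet-based single-cell RNA sequencing of aortic tissue from 6 mouse samples was analysed. A single matrix of UMI counts (55450 genes, 60871 barcodes) was deposited, and its values are whole numbers with no scaling. The submitters' processing notes list the build GRCm38, bcl2fastq 5.01, Seurat 3.1.1 and Cell Ranger 3.1.0, while cellranger 6.1.2 stands in the file headers. How cells were filtered before deposit is not stated. Of the barcodes, 53983 passed the limits of 500 genes and 20% mitochondrial UMIs, and 414 barcode sequences occur in more than 1 library. All 55450 gene identifiers matched GENCODE M21.

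Counts were summed per gate and library and scaled to CPM with Python 3.11.15, numpy 2.4.6, scipy 1.17.1 and pandas 2.3.3. Calls follow a size rule and no test: at least 50 CPM on the higher side, a ratio of 2 with 5 CPM added, and the same direction in every library with 20 cells in both gates. Scrublet (scanpy 1.11.5) marked 3.02 to 11.7% of barcodes per library at an expected 6%, and doublets were kept, with their removal as an alternative. Sub-clusters came from Leiden clustering at resolution 0.4 on 1500 variable genes chosen within libraries, 20 principal components and 15 neighbours, leaving out rule and mitochondrial genes. Smooth muscle (at least 5% of UMIs from the 4 genes), fibroblast (10 UMIs of Pdgfra, Dcn, Lum and Col1a1) and macrophage gates (5 UMIs of C1qa, C1qb and C1qc), all without UMIs of the 5 endothelial genes, gave background shares. Levels have exact Poisson and shares exact Clopper-Pearson 95% intervals. The counting was tested on simulated data. The cell rule, the members and the lists were chosen with earlier results of these data known. Genes are named if they are the 6 markers, the 12 with the largest margin over and the 8 furthest below all 3 gates, the 4 with the largest ratio to each gate in each direction, up to 4 per list past the rule and up to 2 others by level, or the 6 widest and 2 narrowest over libraries. List genes beyond these were named after their values were seen. The planned comparison of genotypes was not made, since no cell could be tied to a sample. A few genes that met these rules are not reported here.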

Additional observations from a re-analysis of the deposited data

How the results depend on the processing

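The 12 genes with the largest margins and the 8 furthest below kept their direction in all 23 other settings, and none reversed. Of 460 such values, 8 lost the call: with at least 100 CPM asked of the higher side, Isl1, Coch, Nkx2-3, Pla2g5, Ahsg, Pcdh17, Adamts9 and Csf2rb no longer counted. Leaving out each library in turn gave 94 to 109 genes higher and 55 to 64 lower than in all 3 gates. It gave 414 to 431 higher and 471 to 490 lower against capillary, 276 to 304 and 279 to 309 against venous, and 141 to 163 and 176 to 208 against arteriolar cells, with 1488 to 1646 luminal cells and a luminal share of 21.4 to 24.3%. The counts moved with the limits, as their construction sets. At a ratio of 1.5 they were 212 higher and 123 lower against all 3 gates, 703 and 803 against capillary, 526 and 496 against venous, and 314 and 398 against arteriolar cells. At a ratio of 3 they were 48 and 33, 264 and 292, 150 and 159, and 73 and 93. With 20 CPM in place of 50, 112 genes were lower than in all 3 gates, 640 higher than in capillary, 453 lower than in venous and 311 lower than in arteriolar cells. With 100 CPM these were 32, 265, 179 and 110, while 318 genes were lower than in capillary and 179 higher than in venous cells. Of 216 counts under other settings, 189 stayed within 1.5 times the value reported. Thinning to 2000 UMIs left 1209 luminal cells, since fewer reach a sum of 3.

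Where the limits stayed as they were, 93 to 108 of the 108 higher and 53 to 63 of the 63 lower genes remained. Leaving out cells with over 1% of UMIs from markers of other cell types, chosen after seeing the data, gave 1760 luminal cells, 130 higher and 70 lower genes. Leaving out cells held in by Bmp6 alone, also added later, gave 1809, 109 and 62. In this design depth limits the share of cells with a UMI, since a median luminal cell has 6013.5 UMIs. No paired analysis was possible because no label ties a barcode suffix to a sample, and no test across samples was made. The deletion's effect on luminal cells was not analysed here.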

Other observations

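Some of the 108 genes that were higher in luminal cells than in all 3 gates belong to none of the lists, and those named here were chosen after their values were seen. Pde3a, a cyclic nucleotide phosphodiesterase gene, was at 543 CPM in luminal cells (libraries 446, 529 and 667), against 26.8, 48.7 and 87.8 CPM in capillary, venous and arteriolar cells. F2r, the thrombin receptor gene, was at 125 CPM (libraries 110.3, 121 and 162), against 36.5, 9.71 and 36.0 CPM. Adra2a, an adrenergic receptor gene, was at 61.2 CPM (libraries 49.8, 62.7 and 73.4), against 1.49, 1.39 and 8.25 CPM. Pcolce2, a procollagen C-proteinase enhancer gene, was at 326 CPM (libraries 307, 322 and 353), against 50.8, 59.1 and 87.1 CPM, and P3h3, a collagen prolyl hydroxylase family gene, at 146 CPM (libraries 127, 144 and 165), against 17.5, 34.9 and 36.7 CPM.

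Luminal cells with Xist UMIs and cells with Y-linked UMIs were counted in each library. In libraries 1, 3 and 4 both kinds were found: 87, 33 and 125 luminal cells held Xist and no Y-linked UMI, and 86, 108 and 126 held Y-linked and no Xist UMIs. In libraries 2, 5 and 6 no luminal cell held Xist alone, and 244, 227 and 143 held Y-linked UMIs alone. The labels give no sex, so these counts are not tied to any group.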
